A study of Homo sapiens with 9 samples.

Results

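Transcripts of 10 epithelial and mesenchymal marker genes were followed in A498, a widely used human cell line derived from a clear cell renal cell carcinoma (ccRCC). The genes were chosen by name as textbook markers and were 10 of the 27671 genes in the table. They were *CDH1*, *EPCAM*, *CDH2*, *VIM*, *FN1*, *SNAI1*, *SNAI2*, *ZEB1*, *ZEB2* and *TWIST1*. RNA sequencing covered 3 groups of 3 biological replicates, 9 libraries in all. The control group carried a control short hairpin RNA (shControl, genotype WT in the labels), the second a hairpin against *BMAL1* (shBMAL1, BMAL1 knockdown) and the third a hairpin against *ARNT* (shARNT, ARNT knockdown). All 3 groups were infected with lentivirus made from pLKO.1 vectors, selected with puromycin and kept in puromycin. Each group was a selected population of 1 cell line with 1 hairpin named for its target, so an effect of the hairpin sequence and an effect of the depletion cannot be told apart. The study's methods list more than 1 *BMAL1* hairpin and do not say which was used for these libraries. Hypoxia-inducible factors bind DNA together with ARNT, and the clock protein CLOCK binds it together with BMAL1. The study asked how far each contributes to gene expression driven by HIF2α.

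An epithelial cell is held to its neighbours by E-cadherin, the product of *CDH1*, and by other adhesion proteins such as EpCAM. In the epithelial-mesenchymal transition, a program used in development and wound healing and often studied in carcinoma, E-cadherin is lost while N-cadherin (*CDH2*), the intermediate filament protein vimentin (*VIM*) and the matrix glycoprotein fibronectin (*FN1*) are gained. The zinc finger proteins Snail (*SNAI1*), Slug (*SNAI2*), *ZEB1* and *ZEB2* and the bHLH protein *TWIST1* are the transcription factors best known for driving the program, and the zinc finger factors repress *CDH1* by binding E-box sequences. Proximal tubule cells of the kidney, from which ccRCC is thought to arise, carry N-cadherin and cadherin-6 rather than E-cadherin as their main cadherins, and vimentin is a routine marker of ccRCC.

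Total counts were even, from 35269870 to 36099096 per library. The targeted transcripts were lower in the libraries of their own hairpins. *ARNT* was at 50.5 ± 2.24 CPM (counts per 1000000 of the TMM-adjusted library size; mean ± SD, n = 3) in shControl and 9.46 ± 0.433 CPM in shARNT, which left 18.8%. *BMAL1*, listed as *ARNTL*, was at 16.3 ± 0.395 CPM in shControl and 5.02 ± 0.789 CPM in shBMAL1, which left 30.9%. *EPAS1*, which encodes HIF2α, was also lower, with 345 ± 18.6 CPM in shControl, 233 ± 18.8 CPM in shBMAL1 and 74.2 ± 3.41 CPM in shARNT. *ARNT* itself was at 63.9% of control in shBMAL1, while *ARNTL* was at 23.8 ± 1.3 CPM in shARNT, or 146% of control. All 12 kidney and ccRCC markers examined, *VIM* among them, reached at least 10 counts in a library of every group, including *PAX8*, a lineage factor of the renal epithelium. Their summed level was 9581 to 9695 CPM in the control libraries, 8300 to 8677 CPM with shBMAL1 and 2726 to 2911 CPM with shARNT. Most of the control sum was *VIM* itself, at 5974 ± 28.8 CPM in shControl, 4309 ± 263 CPM in shBMAL1 and 812 ± 28.6 CPM in shARNT. In shARNT 9 of the 12 fell and 2 rose, among them *PAX8*, from 36 ± 1.92 to 100 ± 5.65 CPM. Of all genes tested, 41.3% were called lower in shARNT and 40.5% higher. Of 12 markers of other cell types, the endothelial *CDH5* and the T cell gene *CD3E* had at most 1 count in any library, and *PECAM1*, *KDR*, *VWF* and the leukocyte gene *PTPRC* had at most 12. Of the fibroblast and pericyte genes, *RGS5* had 142 to 161 counts in a control library, *PDGFRB* 65 to 82 and *PDGFRA* 5 to 10. The hepatocyte gene *ALB* had 7 to 16 counts in shControl and 26 to 35 in shBMAL1. In shControl 7 of the 12 reached 10 counts in a library, in shBMAL1 5 and in shARNT 3. The summed level of these 12 was 2036 to 2150 CPM in the control libraries, 1792 to 1906 CPM with shBMAL1 and 190 to 193 CPM with shARNT, nearly all of it from *CD68*, a lysosomal protein used as a macrophage marker, and *COL1A1*, a fibrillar collagen chain. Their part in the results below was not tested. In bulk RNA, fewer cells expressing a gene and less RNA per cell cannot be told apart.

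Promoter sequence was matched for 5 of the 10 genes in RefSeq (GRCh38.p14), namely *CDH2*, *VIM*, *FN1*, *ZEB1* and *ZEB2*. The 250 bases upstream of the start site are shown for the 3 structural genes and for *ZEB2*, because the results below turn on them: *VIM* and *FN1* fell in both depletions by different amounts, *CDH2* fell in both by amounts that could not be separated, and *ZEB2* fell in shARNT and rose in shBMAL1. Capitals mark matches on either strand to CAGGTG, the E-box bound by the zinc finger factors, to CACGTG, the E-box of CLOCK and BMAL1, and to ACGTG or GCGTG, the core of the hypoxia response element. CACGTG contains ACGTG. Of 35116 promoter windows of the same length, 17.5% held CAGGTG, 6.34% CACGTG, 18.5% ACGTG and 32.2% GCGTG.
VIM promoter, chr10:17227991-17228240, plus strand: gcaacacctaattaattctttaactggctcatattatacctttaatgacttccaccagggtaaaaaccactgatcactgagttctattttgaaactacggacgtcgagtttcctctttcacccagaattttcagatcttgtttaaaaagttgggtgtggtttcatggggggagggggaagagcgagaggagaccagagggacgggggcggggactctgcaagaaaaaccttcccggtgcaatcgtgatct
FN1 promoter, chr2:215436069-215436318, minus strand: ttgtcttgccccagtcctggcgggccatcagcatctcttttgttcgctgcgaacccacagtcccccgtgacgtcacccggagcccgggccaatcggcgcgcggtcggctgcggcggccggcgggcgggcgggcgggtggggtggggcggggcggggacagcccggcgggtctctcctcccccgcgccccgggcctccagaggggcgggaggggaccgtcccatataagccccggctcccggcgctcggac
CDH2 promoter (first of 2 start sites), chr18:28177131-28177380, minus strand: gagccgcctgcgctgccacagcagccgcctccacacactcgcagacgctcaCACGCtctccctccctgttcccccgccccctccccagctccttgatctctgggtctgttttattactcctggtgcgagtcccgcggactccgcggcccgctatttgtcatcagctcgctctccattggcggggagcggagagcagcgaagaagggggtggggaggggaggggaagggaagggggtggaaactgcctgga
ZEB2 promoter, chr2:144520120-144520369, minus strand: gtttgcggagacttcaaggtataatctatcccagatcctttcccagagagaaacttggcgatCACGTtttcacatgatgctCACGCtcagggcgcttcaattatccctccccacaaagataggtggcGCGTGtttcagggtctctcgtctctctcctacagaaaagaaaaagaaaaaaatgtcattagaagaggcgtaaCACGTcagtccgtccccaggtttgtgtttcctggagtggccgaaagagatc
The *ZEB2* window held 2 ACGTG matches, which begin 188 and 51 bases upstream of the start site, and 2 GCGTG matches, which begin 169 and 123 bases upstream. The *CDH2* window held 1 GCGTG match, 199 bases upstream, and the window of its second start site held none. The *VIM* and *FN1* windows held none of the 4 motifs. Of the 7 start sites of *ZEB1*, 5 held a match to one of the motifs. A match is a stretch of letters and not a measured binding site, and a window without one says nothing about binding elsewhere.

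In A498 cells of the control group the mesenchymal structural genes were abundant. The epithelial adhesion genes among the markers, *CDH1* and *EPCAM*, were near the limit of detection. Scaled by the combined length of a gene's exons, the order in shControl was *VIM* at 1154 CPM per kilobase, *FN1* at 278, *CDH2* at 28.1, *SNAI1* at 24.7, *SNAI2* at 2.52, *ZEB1* at 2.38, *ZEB2* at 2.09, *EPCAM* at 0.17 and *CDH1* at 0.0166 CPM per kilobase, with *TWIST1* at 0. Neighbours in this order had separate ranges over the 3 libraries, except *SNAI2* and *ZEB1*, and *CDH1* and *TWIST1*, whose ranges overlapped. The order of the 3 low factors depended on the length used. The exons of *ZEB2* combine to 26151 bases and its longest transcript has 9583. With the length of the longest transcript, *ZEB2* stood at 5.71, *ZEB1* at 3.3 and *SNAI2* at 2.92 CPM per kilobase. In shBMAL1, *SNAI1* at 22.4 CPM per kilobase of exon stood above *CDH2* at 19.4. With the longest transcript *CDH2*, at 41.4, stood above *SNAI1* at 22.4, so this order depended on the length too. *ZEB2* at 2.79 CPM per kilobase of exon stood above *ZEB1* at 2.23 and *SNAI2* at 1.38 in shBMAL1. In shARNT, *ZEB1* at 1.58 CPM per kilobase stood above *ZEB2* at 0.758 and *SNAI2* at 0.113, and the range of *SNAI2* overlapped that of *EPCAM*.

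In GRCh37 coordinates of GENCODE genes, *VIM* lies at chr10:17270240-17279592 and *ZEB1* at chr10:31607424-31818742. *FN1* lies at chr2:216225163-216300796, *ZEB2* at chr2:145121931-145278624 and *EPCAM* at chr2:47572297-47614740. *CDH2* lies at chr18:25512843-25757910, *CDH1* at chr16:68771195-68869440 and *SNAI1* at chr20:48599517-48605423. *SNAI2* lies at chr8:49830157-49834299 and *TWIST1* at chr7:19060614-19157259. The counts are per gene, so they do not separate exons or isoforms.

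**Figure D1:**
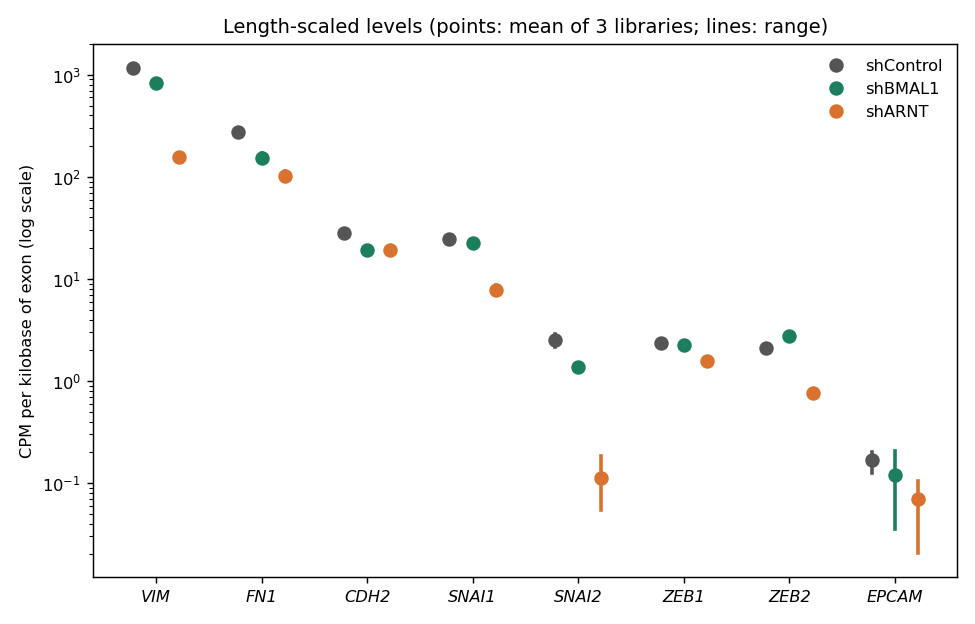
Length-scaled level of 8 marker genes (CPM per kilobase of exon, log axis) in shControl, shBMAL1 and shARNT; points are means of 3 libraries and lines run from the lowest to the highest library. *VIM* and *FN1* stand above all others in every group, and *SNAI2* falls from 2.52 in shControl to 0.113 in shARNT.

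The epithelial marker genes *CDH1* and *EPCAM* were at the limit of detection. This did not hold for every epithelial gene, as *KRT8* was at 1099 ± 12.5 CPM and *CDH3* at 50.5 ± 0.855 CPM in shControl. Others were low, such as *TJP3* at 0.938 ± 0.114 CPM. Of the 40 junction and polarity genes listed below, 34 passed the filter on low counts, as did 15551 of all 27671 genes. *EPCAM* passed it too, so passing does not show a level well above the limit of detection. *CDH1* had 0, 6 and 4 counts in the shControl libraries, 0, 0 and 2 in shBMAL1, and 2, 9 and 1 in shARNT. The groups overlapped, and *CDH1* did not pass the filter on low counts. Without the filter, the edgeR quasi-likelihood test gave log2 fold changes of 0.00 for shARNT (adjusted p = 1) and -2.18 for shBMAL1 (adjusted p = 0.199) against shControl, so a change of *CDH1* was not detectable at this depth. *CDH2*, the mesenchymal cadherin, had 704 to 2668 counts for each count of *CDH1*, with *CDH1* set to 3 counts where it was lower. *EPCAM*, an adhesion protein of simple epithelia, had 15, 16 and 10 counts in shControl, 17, 3 and 10 in shBMAL1, and 8, 2 and 10 in shARNT. It passed the filter on low counts through libraries of shControl and shBMAL1 and not of shARNT. Its levels in shARNT, at most 0.252 CPM, lay just below the lowest control library at 0.303 CPM, and its log2 fold change was -1.28 ± 0.57 (SE; adjusted p = 0.0487). That call was lost when library size alone was used for scaling (adjusted p = 0.102) and without replicate 1 or 2 of shControl or replicate 2 of shARNT (adjusted p = 0.101, 0.125 and 0.189). In shBMAL1 its level overlapped the control (-0.49 ± 0.54, adjusted p = 0.454), and the value was -1.11 without shBMAL1 replicate 1 and -0.06 without shBMAL1 replicate 2.

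Genes were called at an adjusted p under 0.1. In shARNT against shControl, 7 genes were lower (*CDH2*, *VIM*, *FN1*, *SNAI1*, *SNAI2*, *ZEB1* and *ZEB2*) and 0 higher. *EPCAM* made an eighth call, which is set apart. The gene entered the test through libraries of shControl and shBMAL1, not shARNT, and lost the call in the alternatives named above. For comparison, 41.3% of all 15551 genes tested were called lower and 40.5% higher. At a change of at least 2-fold as well, 5 of the 7 were lower (*VIM*, *FN1*, *SNAI1*, *SNAI2* and *ZEB2*), or 6 with *EPCAM*, against 19.2% of all genes lower and 12.4% higher. In shBMAL1 against shControl, 5 genes were lower (*CDH2*, *VIM*, *FN1*, *SNAI1* and *SNAI2*) and 1 higher (*ZEB2*), where 31.5% of all genes were lower and 31.9% higher. None of the 8 tested genes was called at 2-fold, while 5.51% of all genes were lower and 4.73% higher by that rule. Both comparisons use the same control libraries, so the direct comparison of the depletions was made as well. In shARNT against shBMAL1, 6 genes were lower (*VIM*, *FN1*, *SNAI1*, *SNAI2*, *ZEB1* and *ZEB2*) and 0 higher, where 41.1% of all genes were lower and 40.1% higher. By the 2-fold rule 4 were lower (*VIM*, *SNAI1*, *SNAI2* and *ZEB2*), against 18.8% lower and 12% higher among all genes. *CDH1* and *TWIST1* were not tested. With library size alone, 60.5% of the calls among all genes in shARNT against shControl were higher, compared with 49.5% under TMM scaling. Most genes were called in these data, so the sizes below carry more than the calls.

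**Figure D2:**
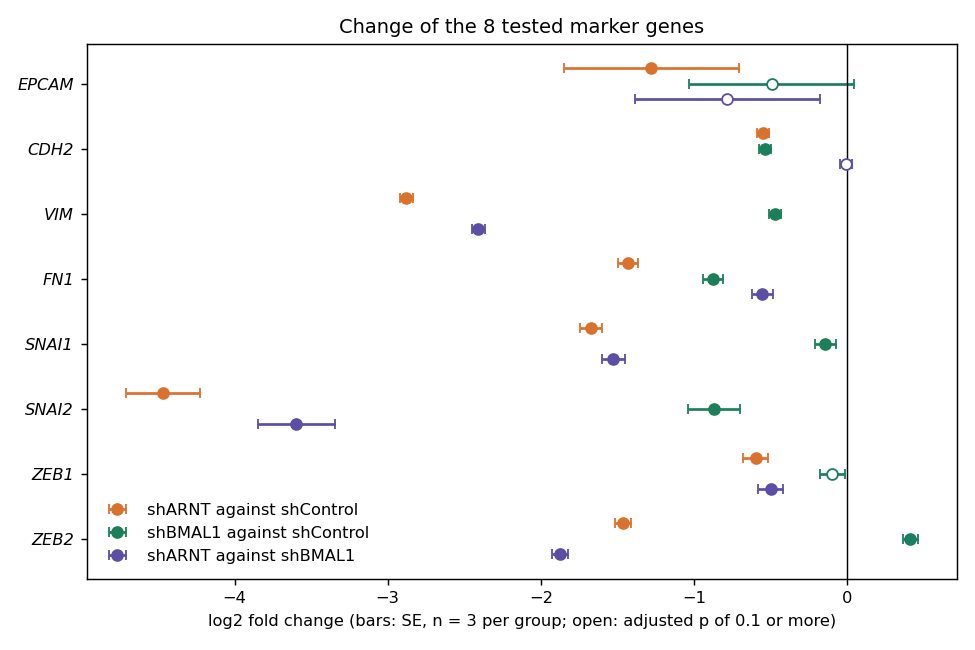
Log2 fold change of the 8 tested genes in the 3 comparisons; points are edgeR estimates, bars are the SE, and open points did not pass an adjusted p of 0.1. *CDH2* is at about the same value in both depletions (-0.55 and -0.54), and *ZEB2* is on opposite sides of 0 (-1.47 and 0.41).

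*VIM*, vimentin, was the 8th most abundant transcript by CPM in shControl and the 93rd in shARNT. Its level was 6004, 5972 and 5947 CPM in shControl, 4245, 4598 and 4085 CPM in shBMAL1, and 786, 807 and 843 CPM in shARNT. The 3 groups did not overlap, with the control highest and shARNT far below both others. The fall left 13.6% of the control level in shARNT (log2 fold change -2.88 ± 0.04, adjusted p = 5.52e-22) and 72.1% in shBMAL1 (-0.47 ± 0.04, adjusted p = 2.48e-09). Only 2.87% of all genes tested had a lower log2 fold change in shARNT, whereas 17.6% did in shBMAL1. *VIM* took 0.554% to 0.566% of all counts in a control library, 0.393% to 0.447% with shBMAL1 and 0.0872% to 0.0927% with shARNT. The keratins that pair with each other in simple epithelia were also measured. *KRT8* fell from 1099 ± 12.5 to 653 ± 28.6 CPM in shARNT (log2 fold change -0.75, adjusted p = 3.24e-13), and *KRT18* was at 566 ± 1.78 CPM in shControl and 563 ± 23.1 CPM in shARNT (log2 fold change -0.01, adjusted p = 0.871).

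*FN1*, the matrix glycoprotein fibronectin, was at 4833, 4417 and 5109 CPM in shControl, 2461, 2427 and 2936 CPM in shBMAL1, and 1632, 1750 and 1946 CPM in shARNT. Again the groups did not overlap, but here shBMAL1 lay nearer to shARNT than to the control. The level fell to 37.1% of control in shARNT (log2 fold change -1.43 ± 0.07, adjusted p = 7.84e-14) and to 54.5% in shBMAL1 (-0.88 ± 0.07, adjusted p = 7.56e-10). It ranked 12 by CPM in shControl, 31 in shBMAL1 and 32 in shARNT. Of all genes, 12.4% had a lower log2 fold change in shARNT and 7.32% in shBMAL1, so *FN1* stood further out among all genes in shBMAL1.

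*CDH2*, N-cadherin, was at 240, 242 and 242 CPM in shControl, 166, 163 and 169 CPM in shBMAL1, and 161, 160 and 173 CPM in shARNT. The control libraries were above all others, and the libraries of the depletions overlapped. The fall was to 68.3% of control in shARNT (log2 fold change -0.55 ± 0.04, adjusted p = 7.75e-11) and to 68.8% in shBMAL1 (-0.54 ± 0.04, adjusted p = 4.61e-10). Between the depletions the difference was -0.01 ± 0.04 (adjusted p = 0.819), with a sign that depended on the scaling, and with library size alone it was 0.18 (adjusted p = 0.000309). Relative to the median of all genes under that scaling it was -0.00. *CDH2* was the tested structural gene for which the depletions could not be separated.

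**Figure D3:**
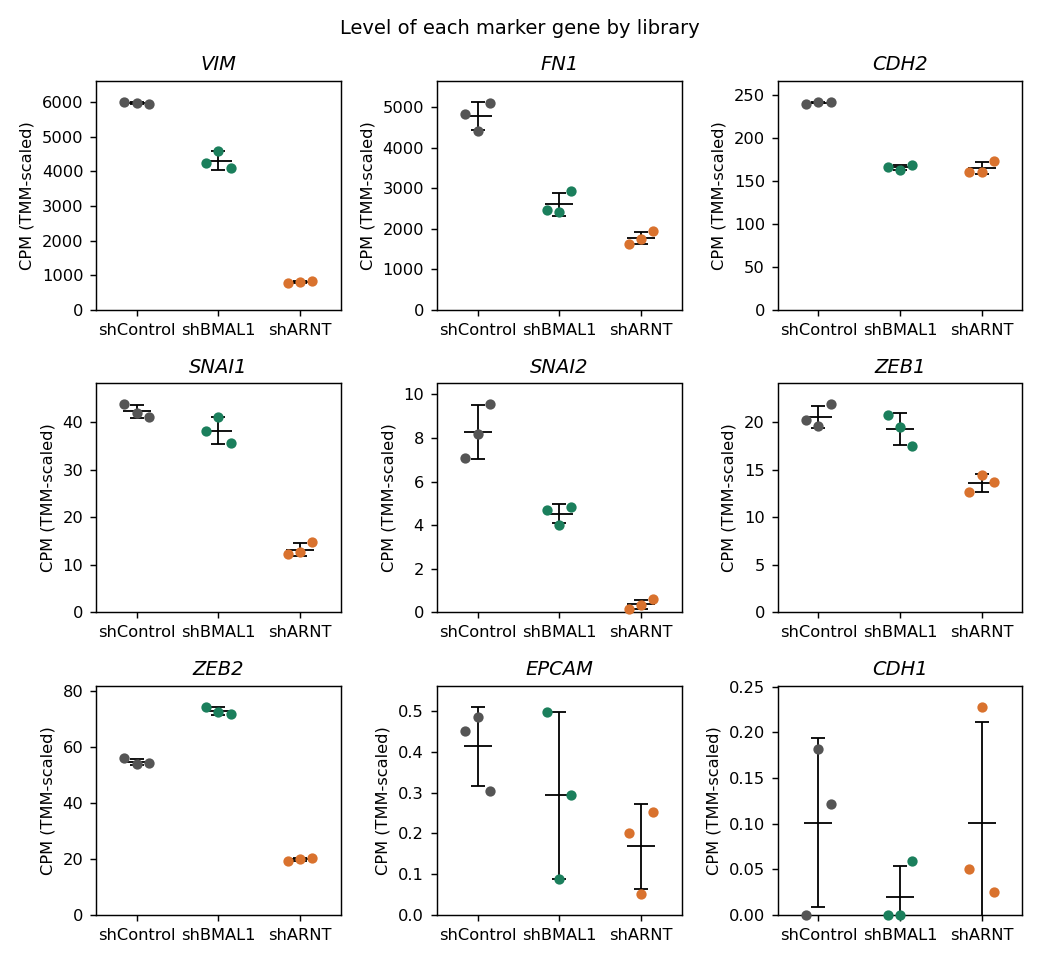
Level of 9 marker genes in each library (CPM, linear axes from 0) by group; points are libraries and the black bars show the mean and SD of 3 libraries. *VIM*, *SNAI1* and *SNAI2* are lowest in shARNT, *ZEB2* is highest in shBMAL1, and *EPCAM* and *CDH1* reach at most 0.497 CPM with wide spread.

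Among the transcription factors, *SNAI2* (Slug) had the largest fold change in both depletions. It had 235, 270 and 315 counts in shControl, 160, 139 and 165 in shBMAL1, and 7, 13 and 24 in shARNT, or 8.27 ± 1.24, 4.52 ± 0.43 and 0.37 ± 0.217 CPM. The groups did not overlap, and the shARNT libraries were close to the lower limit of detection. The level fell to 4.48% of control in shARNT (log2 fold change -4.47 ± 0.24, adjusted p = 6.77e-13) and to 54.7% in shBMAL1 (-0.87 ± 0.17, adjusted p = 0.000207). In shARNT, 104 of the 15551 genes had a lower log2 fold change. *SNAI1* (Snail) was the more abundant of the pair, at 43.7, 41.8 and 41.1 CPM in shControl, 38, 41 and 35.5 CPM in shBMAL1, and 12.2, 12.7 and 14.7 CPM in shARNT. The shARNT libraries were clearly separate, while the highest shBMAL1 library came close to the lowest control library. The level fell to 31.4% of control in shARNT (-1.67 ± 0.07, adjusted p = 3.01e-14). The change in shBMAL1 was small (-0.14 ± 0.07, adjusted p = 0.0791), and its call was lost with library size alone (-0.10, adjusted p = 0.245) and without replicate 1 or 2 of shControl or replicate 1 or 3 of shBMAL1 (adjusted p = 0.122 to 0.289). In shControl *SNAI2* made up 13.9% to 18.8% of the summed *SNAI1* and *SNAI2* CPM, compared with 8.95% to 12% in shBMAL1 and 1.43% to 3.94% in shARNT.

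*ZEB2* was the one marker gene that moved in opposite directions. Its level was 55.9, 54 and 54.3 CPM in shControl, 74.3, 72.4 and 71.8 CPM in shBMAL1, and 19.1, 20 and 20.4 CPM in shARNT. No groups overlapped, with shBMAL1 above and shARNT below the control. It rose to 133% of control in shBMAL1 (log2 fold change 0.41 ± 0.05, adjusted p = 4.63e-07) and fell to 36.2% in shARNT (-1.47 ± 0.05, adjusted p = 9.58e-16), and the direct comparison gave -1.88 ± 0.05 (adjusted p = 1.5e-17). *ZEB1* was at 20.3, 19.6 and 21.9 CPM in shControl, 20.8, 19.5 and 17.5 CPM in shBMAL1, and 12.7, 14.5 and 13.7 CPM in shARNT. The shBMAL1 libraries overlapped the control (-0.10 ± 0.08, adjusted p = 0.317) and the shARNT libraries lay below both (-0.60 ± 0.08, adjusted p = 1.54e-06). The share of *ZEB2* in the summed *ZEB1* and *ZEB2* CPM was 71.2% to 73.4% in the control, 78.1% to 80.4% with shBMAL1 and 57.9% to 60.1% with shARNT. CPM is not scaled by length, so these shares do not say which gene had more transcripts. Per kilobase of exon *ZEB2* was below *ZEB1* in shControl (2.09 and 2.38) and shARNT (0.758 and 1.58). With the longest transcript it was above in shControl (5.71 and 3.3) and below in shARNT (2.07 and 2.18). Some *ZEB2* counts were fractions of reads. Strand use in the counting was not stated, so reads from *ZEB1* and *ZEB2* cannot be told apart from those of their antisense genes where they overlap. *ZEB1-AS1* had 136, 164 and 142 counts in shControl, 111, 152 and 131 in shBMAL1, and 271, 234 and 252 in shARNT, a rise in shARNT (log2 fold change 0.52, adjusted p = 0.00186) beside the fall of *ZEB1*. *ZEB2-AS1* had at most 6 counts in a library. *VIM-AS1* had 30 to 63 counts in a library, beside at least 31140 for *VIM*.

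*TWIST1* had 0 counts in all 9 libraries. A count of 0 allows up to 3 counts, or 0.0756 to 0.0911 CPM, by counting error only. The 5 factors together summed to 124 to 127 CPM in the control libraries, 130 to 138 CPM with shBMAL1 and 44.1 to 49.5 CPM with shARNT. The CPM sum was thus above the control in shBMAL1, where *ZEB2* rose and *SNAI2* fell. The small fall of *SNAI1* there lost its call in the alternatives named above. CPM is not scaled by length, so the sum gives more weight to *ZEB2*, with 26151 exon bases, than to *SNAI1*, with 1705. Per kilobase of exon, *SNAI1* was at 24.7 CPM in shControl and 22.4 in shBMAL1, and *ZEB2* at 2.09 and 2.79. The direction of the sum therefore holds for CPM only.

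**Figure D4:**
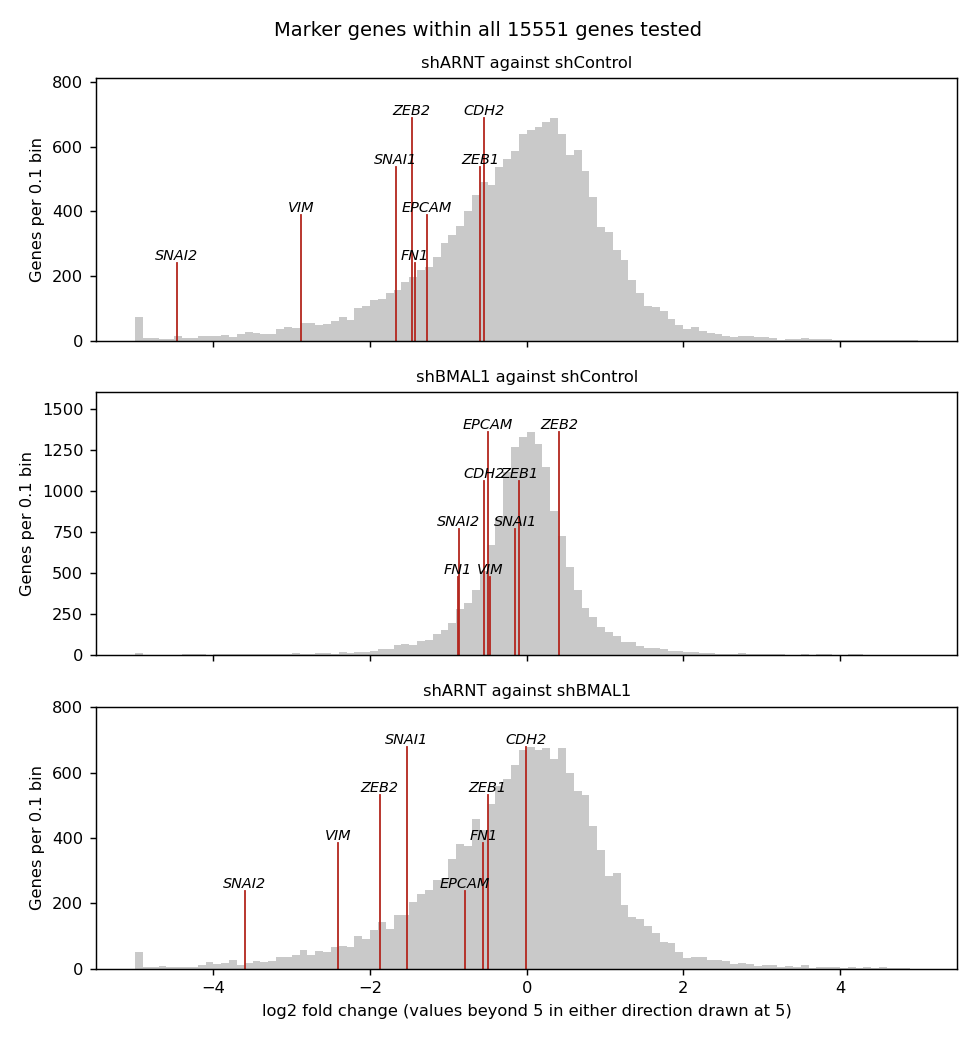
Log2 fold changes of all 15551 genes tested (grey, genes per bin of 0.1) with the 8 tested marker genes drawn as red lines, in the 3 comparisons; line heights only separate the labels. *SNAI2* and *VIM* lie in the left tail of both comparisons with shARNT, and in shBMAL1 all 8 lie within 1 of 0.

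The other genes of the epithelial and mesenchymal programs were read from lists, each set against the median of all genes, which was -0.01 for shARNT, -0.00 for shBMAL1 and -0.01 for the direct comparison. Of the 40 epithelial junction and polarity genes listed, 34 were tested. In shARNT 19 fell and 11 rose (median log2 fold change -0.33), and in shBMAL1 15 fell and 13 rose (median -0.04). That is 55.9% lower and 32.4% higher in shARNT, beside 41.3% and 40.5% of all genes, and 44.1% and 38.2% in shBMAL1, beside 31.5% and 31.9%. *CDH3*, P-cadherin, was at 50.5 ± 0.855 CPM in shControl. It fell to 9.18 ± 1.01 CPM with shBMAL1 (log2 fold change -2.46) and to 1.26 ± 0.164 CPM with shARNT (-5.32). *DSC2*, a desmosomal cadherin, fell in shARNT (-3.15), as did *CDH6*, cadherin-6 of the proximal tubule, from 199 ± 3.03 to 29.3 ± 1.36 CPM (-2.76). *CLDN1* and *TJP3*, tight junction genes, rose in shARNT (2.17 and 3.60), and *CLDN4* and the kidney cadherin gene *CDH16* rose in shBMAL1 (1.68 and 1.55). In the direct comparison 17 of the 34 were lower and 9 higher (median -0.29), with *CDH16* at -2.89 and *TJP3* at 2.70. The shares were 50% lower and 26.5% higher, beside 41.1% and 40.1% of all genes.

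Of 12 epithelial regulators 7 were tested. In shARNT 1 fell and 3 rose (median log2 fold change 0.73), in shBMAL1 1 fell and 3 rose (median 0.58), and directly compared 1 was lower and 5 higher (median 0.64). The shares were 14.3% lower and 42.9% higher in either depletion. Among all genes they were 41.3% and 40.5% in shARNT, and 31.5% and 31.9% in shBMAL1. Directly compared, 14.3% were lower and 71.4% higher, beside 41.1% and 40.1% of all genes. *KLF4*, a zinc finger factor of epithelial differentiation, rose in both depletions. Its control level of 6.8 ± 0.46 CPM compared with 15.7 ± 0.258 CPM with shBMAL1 (log2 fold change 1.20) and 24.5 ± 2.63 CPM with shARNT (1.85). *ELF3*, an epithelial ETS factor, rose from 94.9 ± 4.03 to 279 ± 16.8 CPM in shARNT (1.56). *KLF5* fell in shARNT (-0.68) and rose in shBMAL1 (0.67). Of 10 genes listed as catenins and other junction partners of the cadherins, *NECTIN2* and *NECTIN3* among them, 8 were tested. In shARNT 5 fell and 0 rose (median -0.18), in shBMAL1 4 fell and 3 rose (median -0.02), and directly compared 6 were lower and 0 higher (median -0.30). The shares were 62.5% lower and 0% higher in shARNT, beside 41.3% and 40.5% of all genes. They were 50% and 37.5% in shBMAL1 (31.5% and 31.9% of all genes) and 75% and 0% directly compared (41.1% and 40.1%). *JUP*, plakoglobin, was at 170 ± 3.46 CPM in shControl, 102 ± 1.62 CPM in shBMAL1 and 55.6 ± 1.34 CPM in shARNT, and *CTNNA1*, α-catenin, fell in shARNT (-0.68). *CTNNB1*, β-catenin, rose in shBMAL1 (0.30), as did *NECTIN3*, listed as *PVRL3* (0.45), while *AFDN*, listed as *MLLT4*, fell (-0.22).

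Genes of mesenchymal structure and matrix other than *VIM*, *FN1* and *CDH2* were listed next. Of the 33 listed 25 were tested, and in shARNT 17 fell and 4 rose (median log2 fold change -0.44), against 10 and 9 in shBMAL1 (median -0.05). The shares were 68% lower and 16% higher in shARNT, beside 41.3% and 40.5% of all genes, and 40% and 36% in shBMAL1, beside 31.5% and 31.9%. Directly compared, 17 were lower in shARNT and 7 higher (median -1.14), or 68% and 28% beside 41.1% and 40.1% of all genes. *TGFBI*, a matrix protein, fell from 4622 ± 261 to 460 ± 12.7 CPM in shARNT (-3.33) and *POSTN*, periostin, from 9.19 ± 1.28 to 0.799 ± 0.248 CPM (-3.52). *CCN2* and *CCN1*, listed as *CTGF* and *CYR61*, rose in shARNT (1.12 and 0.78), and *CCN2* fell in shBMAL1 (-1.70). *TNC*, tenascin-C, and *NT5E*, the surface enzyme CD73, rose in shBMAL1 (2.19 and 2.93) while *MYL9* fell (-0.88), and *TNC* differed by -4.37 between the depletions. A list of fibronectin receptors and matrix partners, which also held the intracellular *PLEC* and *LMNA*, moved differently in the depletions. Of 11 tested of 12, 10 fell and 1 rose in shARNT (median -1.19), 0 fell and 7 rose in shBMAL1 (median 0.18), and all 11 were lower in shARNT than in shBMAL1 (median -1.33). The shares were 90.9% lower and 9.09% higher in shARNT, and 0% and 63.6% in shBMAL1. Directly compared, 100% were lower, beside 41.1% of all genes. *ITGA5*, the α5 integrin chain of the classical fibronectin receptor, fell from 403 ± 11 to 98.7 ± 5.99 CPM in shARNT (-2.03) and rose in shBMAL1 (1.31), where *FN1* fell. *TGM2*, a crosslinking enzyme, fell in shARNT (-1.83), and *ITGB3* rose in both (1.37 in shARNT and 1.68 in shBMAL1).

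Of 24 regulators of the mesenchymal program other than the 5 factors 19 were tested, with 9 lower and 8 higher in shARNT (median log2 fold change 0.16), 8 lower and 5 higher in shBMAL1 (median -0.07), and 9 lower and 7 higher between the depletions (median -0.14). The shares in shARNT, 47.4% lower and 42.1% higher, were near those of all genes (41.3% and 40.5%), and those in shBMAL1 were 42.1% and 26.3% (31.5% and 31.9% of all genes). Between the depletions they were 47.4% and 36.8% (41.1% and 40.1% of all genes). *SOX9* fell in shARNT (-1.47) and *MRTFA*, listed as *MKL1*, in both (-0.55 in shARNT and -0.70 in shBMAL1), while *MRTFB*, listed as *MKL2*, rose in shARNT (0.26). *MSX1* rose in shARNT (0.90) and fell in shBMAL1 (-0.71), and *HMGA2* and *RUNX2* rose in shBMAL1 (1.90 and 1.08). *FOXC1* was higher in shARNT than in shBMAL1 (0.72). TGF-β is the classical inducer of the program. Of 27 genes listed for its axis 26 were tested, with 11 lower and 12 higher in shARNT (median 0.01), 10 lower and 11 higher in shBMAL1 (median -0.01), and 11 lower and 10 higher between the depletions (median -0.06). The shares in shARNT, 42.3% lower and 46.2% higher, were again near those of all genes, and those in shBMAL1 were 38.5% and 42.3%. Between the depletions they were 42.3% and 38.5%. The ligand gene *TGFB1* fell from 718 ± 22.3 to 55.9 ± 0.881 CPM in shARNT (-3.68) and *TGFB2* rose from 20.4 ± 0.73 to 53.1 ± 2.96 CPM (1.38). *BAMBI*, a decoy receptor, fell in shARNT (-3.28), and *ID2*, an inhibitor of bHLH factors, rose in both (1.46 in shARNT and 0.91 in shBMAL1). *ID1* fell in shBMAL1 (-1.54), *LTBP1* rose there (1.30), and *ID3* was higher in shARNT than in shBMAL1 (1.30).

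**Figure D5:**
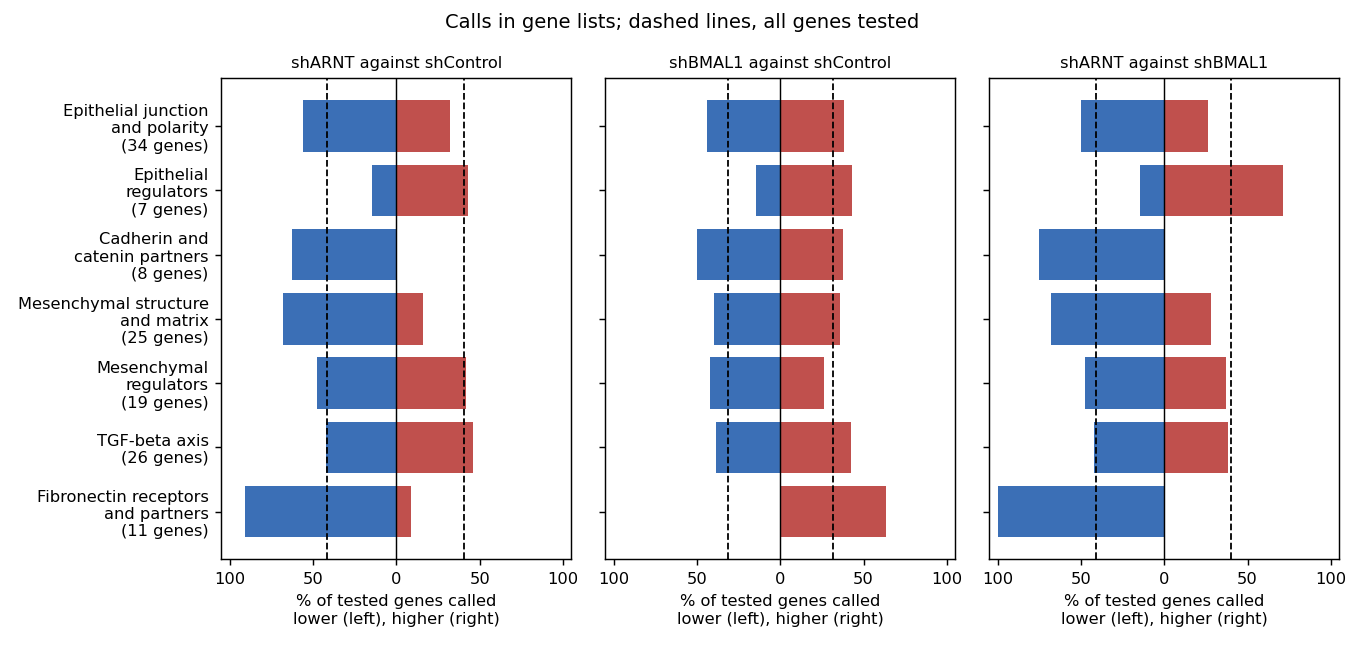
Percentage of tested genes of 7 lists called lower (blue, left of 0) or higher (red, right of 0) at an adjusted p under 0.1 in the 3 comparisons, beside the percentage among all genes tested (dashed lines, 41.3% lower and 40.5% higher for shARNT against shControl). The list of fibronectin receptors and partners, which also holds *PLEC* and *LMNA*, shows 0 lower in shBMAL1 and 11 of 11 lower in shARNT against shBMAL1.

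The list values move beside the line's own lineage markers. Of the 12 kidney and ccRCC markers, which include *VIM* and *CDH6*, 9 fell and 2 rose in shARNT (median log2 fold change -1.20), 8 fell and 3 rose in shBMAL1 (median -0.24), and 8 were lower and 2 higher between the depletions (median -1.10). The shares were 75% lower and 16.7% higher in shARNT (41.3% and 40.5% of all genes). They were 66.7% and 25% in shBMAL1 (31.5% and 31.9%), and 66.7% and 16.7% between the depletions (41.1% and 40.1%). *CA9* and *CA12*, carbonic anhydrases of hypoxic and ccRCC cells, fell in shARNT (-6.17 and -3.17), and *PAX8* rose (1.48). Of the 12 markers of other cell types 5 were tested, and all 5 fell in shARNT (median -2.38), with *CD68* from 1865 ± 68.3 to 142 ± 6.47 CPM and *COL1A1* from 237 ± 6.92 to 45.4 ± 4.99 CPM. In shBMAL1 3 fell and 1 rose (median -0.35), and between the depletions 3 were lower and 1 higher (median -1.36). The shares of these genes were 100% lower and 0% higher in shARNT, and 60% and 20% in each of the other comparisons. Their part in the changes of the marker genes was not tested.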

How the data were processed

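RNA was prepared from A498 cells expressing shControl, shBMAL1 or shARNT, with 3 biological replicates per group, and sequenced from stranded mRNA libraries. Per the study's methods, SeqMan NGen was used by the authors for alignment to GRCh37, and ArrayStar for the gene counts. The submitters' processing notes instead name STAR, DESeq2 and hg38, and this was not resolved. The deposited values were expected counts, not normalized, and 720 to 787 per library were fractions. A value of 0.05 stood for no reads and was set to 0. The 27716 rows held 45 names more than once, and summing these left 27671 genes, 28 of them named by a date. Counts were rounded.

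Groups were compared by edgeR 4.0.16 (R 4.3.3, glmQLFit and glmQLFTest), with all 9 libraries in 1 fit, group as the only factor, TMM scaling and filterByExpr, which kept 15551 genes. Benjamini-Hochberg adjustment covered all of them, and genes were called at an adjusted p under 0.1. Scaling factors by TMM lay between 0.932 and 0.944 for shControl, 0.961 and 0.971 for shBMAL1, and 1.10 and 1.11 for shARNT. Alternatives were DESeq2 1.42.0, other scalings, no filter, a threshold of 0.05, halved counts, 6 libraries per fit, a replicate block and leaving out each library. Replicates differed by more than sampling noise, with a chi-square per gene of 2.12 to 2.46 at mean counts from 10 to 50. Whether replicates came from separate infections was not stated, so p-values measure only the spread between these samples. The statistical script was tested on simulated data. Counts of *CDH2* per count of *CDH1* are given with *CDH1* set to 3 counts in the 6 of 9 libraries where it was lower, since a log ratio cannot be formed at 0.

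The marker genes and lists were chosen with earlier results of these data known. From each list the text names, per comparison, up to 2 called genes with the largest rise and 2 with the largest fall, restricted to genes averaging 2 or more on the log2 CPM scale whose groups did not overlap. Marker genes of the cell line and of other cell types, the depleted genes and antisense genes are named as checks. Some genes that this rule names are not reported here. Gene positions came from GENCODE lifted to GRCh37, and promoters from RefSeq GRCh38.p14. Depth sets the precision of low genes, and limits given for counts of 0 cover counting error only.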

Additional observations from a re-analysis of the deposited data

Results flagged for a closer look

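For 6 marker genes the effects of the depletions differed by the direct comparison of shARNT with shBMAL1, which uses no control library (edgeR quasi-likelihood test, n = 3 per group). Such a difference was common, as 41.1% of all 15551 genes were called lower and 40.1% higher in that comparison. The difference on the log2 scale was -2.41 for *VIM* (adjusted p = 6.27e-21), -3.60 for *SNAI2* (adjusted p = 5.39e-11) and -1.53 for *SNAI1* (adjusted p = 1.37e-13). It was -1.88 for *ZEB2* (adjusted p = 1.5e-17), the gene that moved in opposite directions, and smaller for *FN1* at -0.55 (adjusted p = 2.04e-07) and *ZEB1* at -0.50 (adjusted p = 1.61e-05). The depth of depletion also differed, with 18.8% of *ARNT* left in shARNT and 30.9% of *ARNTL* left in shBMAL1, and its part in these differences was not tested.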

How the results depend on the processing

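Counts of called genes, over the marker genes, the lists and all genes, stayed within 1.5 times the reported values under every alternative run (573 comparisons). Of the log2 fold changes of single marker genes, 392 kept direction and side of the threshold, 9 lost the call, 1 gained it and 6 changed sign. All 6 sign changes were *CDH2* in shARNT against shBMAL1, at 0.18 with library size alone, 0.0009 with RLE scaling or DESeq2, and 0.0013, 0.0050 and 0.0106 without shBMAL1 replicate 3, shARNT replicate 1 and shARNT replicate 2 (range without 1 library -0.0476 to 0.0106); the cause was not tested. The lost calls were *EPCAM* in shARNT (-1.04 with library size alone; -1.21, -1.15 and -0.85 without shControl replicate 1, shControl replicate 2 and shARNT replicate 2) and *SNAI1* in shBMAL1 (-0.10 with library size alone; -0.15 to -0.09 without 1 library). *EPCAM* gained a call in the direct comparison without shBMAL1 replicate 2 (-1.21, adjusted p = 0.0642). Library size alone moved the median of all genes by 0.24, 0.05 and 0.19 in shARNT, shBMAL1 and the direct comparison, and calls in shARNT were then 60.5% higher rather than 49.5%. Relative to that median *VIM* was at -2.87, *FN1* at -1.42 and *CDH2* at -0.54 in shARNT. Replicate numbers did not pair the samples (correlations of same-numbered libraries from -0.14 to 0.19), and with the replicate block 8, 6 and 6 marker genes were called in shARNT, shBMAL1 and the direct comparison, as without it. With the longest transcript as length, levels in shControl were 2241 (*VIM*), 522 (*FN1*) and 60.1 (*CDH2*) CPM per kilobase. Depth limited *CDH1*, *EPCAM* and *TWIST1*, with at most 17 counts in a library.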

Other observations

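Genes whose pattern over the 9 libraries lay close to each tested marker gene were listed as a description, by the root mean square difference in centred log2(CPM + 0.5) among 11227 genes averaging 2 or more on the log2 CPM scale. For *VIM* they were *TMEM45A* at 0.0938 and *ARHGEF6* at 0.0972, and for *FN1* they were *NFIX* at 0.0839 and *PABPC4* at 0.1. For *CDH2*, *LASP1* lay at 0.0359. For *SNAI1* the closest were *LYSMD3* at 0.0718 and *RPL31* at 0.075, and for *SNAI2* they were *ERRFI1* at 0.189 and *FAM115C* at 0.201. *ZEB1* lay closest to *DNTTIP1* at 0.0564 and *TMEM177* at 0.0618, *ZEB2* to *DYNLT3* at 0.0444 and *CES2* at 0.0478, and *EPCAM* to *PRDM2* at 0.163 and *REEP3* at 0.166. The 9 points of each pattern fall into 3 groups, and no function is implied.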
